A study of Homo sapiens with 9 samples.

Results

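The genes of nitric oxide and cyclic GMP signalling were followed in TC-32, an established Ewing sarcoma cell line with an EWSR1::FLI1 fusion. The set holds 10 of the 58381 genes in the deposited table: NOS1, NOS2, NOS3, NOS1AP, GUCY1B1, PRKG1, PRKG2, PDE5A, PDE9A and ASS1. They were matched by gene symbol, and all 10 were found, with GUCY1B1 listed under its older symbol GUCY1B3. The set was chosen by the measured counts of NOS1 in these libraries, which were high in only 1 of the groups, so the levels of NOS1 are a description with no test. The other members were added for their place in the pathway, with their values in these libraries known. The RFP group carried the lentiviral pLOC vector with a red fluorescent protein. The ETS1-Low and ETS1-High groups carried the same vector with a human ETS1 cDNA, at a lower and a higher level. ETS1 is a transcription factor of the ETS family, to which FLI1, a partner in the fusion, also belongs. All groups were kept in the same medium with serum and Plasmocin. The transduced cells were selected with puromycin and sorted as single cells, and the labels do not give the number of clones behind a group. Each of the 3 groups had 3 libraries made with a stranded mRNA kit. The labels do not say that libraries of a group came from separate cultures, so p-values measure the spread between libraries as labelled.

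Nitric oxide synthases make nitric oxide from arginine. The gas binds the heme of soluble guanylyl cyclase, a dimer of an alpha and a beta subunit, which then makes cyclic GMP. Cyclic GMP acts through cyclic GMP-dependent protein kinases and ion channels, and phosphodiesterases hydrolyse it. NOS1 is best known from neurons and skeletal muscle, NOS3 from endothelium and NOS2 from activated macrophages.

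The totals of expected counts were 39484704 to 46654734 per library. ETS1 itself had 87 to 105 counts in the RFP libraries, 400 to 488 in ETS1-Low and 765.09 to 879 in ETS1-High, an order that matches the labels. The 7 Ewing sarcoma markers were all detected, and their summed level was 2253 to 2336 CPM (counts scaled to a common library size) in RFP, 3438 to 3487 in ETS1-Low and 3462 to 3484 in ETS1-High. Of all 17235 genes that passed the filter on low counts, 74.1% were called in ETS1-Low against RFP, 74.2% in ETS1-High against RFP and 59.2% in ETS1-High against ETS1-Low. Called here means an adjusted p under 0.05. The share called higher was 37.9%, 37.0% and 29.9% in these comparisons, and the share called lower was 36.2%, 37.2% and 29.3%. A call is therefore common in these data, and the size of a change and the counts behind it are given for each gene. The comparisons with RFP share its 3 libraries. In bulk RNA, fewer cells that express a gene and less RNA per cell cannot be told apart.

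The sequence before the RefSeq start is shown for 4 members whose levels differed between groups in distinct ways, because ETS factors recognise a GGAA core and both ETS1 and the fusion belong to that family. RefSeq's table on GRCh38.p14 held 8 of the 10 members; NOS2 and PDE9A were not in it. Capitals mark GGAA or, on the other strand, TTCC. Each line is read 5′ to 3′ on the strand of its gene.
NOS1, chr12:117309411-117309660, minus strand: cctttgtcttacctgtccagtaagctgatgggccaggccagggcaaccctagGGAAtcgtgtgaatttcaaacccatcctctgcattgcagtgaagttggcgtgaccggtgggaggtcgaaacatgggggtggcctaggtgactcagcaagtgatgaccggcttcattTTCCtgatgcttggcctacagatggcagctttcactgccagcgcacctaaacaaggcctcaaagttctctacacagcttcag
GUCY1B1, chr4:155758771-155758991, plus strand: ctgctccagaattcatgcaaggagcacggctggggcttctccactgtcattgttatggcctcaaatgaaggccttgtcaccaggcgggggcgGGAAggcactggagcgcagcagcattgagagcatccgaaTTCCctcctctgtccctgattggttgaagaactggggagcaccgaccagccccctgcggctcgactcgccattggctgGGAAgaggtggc
PDE5A, chr4:119628805-119629054, minus strand: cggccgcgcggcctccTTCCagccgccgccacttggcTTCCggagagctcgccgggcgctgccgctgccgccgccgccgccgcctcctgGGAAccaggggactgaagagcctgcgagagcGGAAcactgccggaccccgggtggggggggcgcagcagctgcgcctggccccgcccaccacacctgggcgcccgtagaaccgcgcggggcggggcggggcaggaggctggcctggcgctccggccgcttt
ASS1, chr9:130444457-130444706, plus strand: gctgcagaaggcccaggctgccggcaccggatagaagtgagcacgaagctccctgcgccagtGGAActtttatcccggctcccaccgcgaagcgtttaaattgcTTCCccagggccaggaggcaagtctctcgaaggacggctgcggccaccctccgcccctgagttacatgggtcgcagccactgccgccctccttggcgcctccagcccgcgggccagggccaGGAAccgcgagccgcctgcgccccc

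The NOS1 window lies inside an intron of longer NOS1 transcripts and holds 2 matches. The PDE5A window shown, before the first of 3 RefSeq starts, holds 4 matches, and 1 of them is part of CCGGAA read on the other strand. The windows of its other starts hold 7 in 206 bases, where 4.41% of windows of that length hold at least 6, and 3 in 250 bases. The ASS1 window shown, before the first of 2 RefSeq starts, holds 3 matches, and that before its other start, next to the gene start given below, holds 0. Of all 35116 promoter windows in the table, cut to the same 250 bases, 92.7% held GGAA or TTCC, with a median of 3 matches. CCGGAA or its reverse complement TTCCGG was in 14.5% of them. The GUCY1B1 window was shortened to 221 bases to stay outside annotated exons, and it holds 3 matches, where windows of that length had a median of 2 and 90.2% held at least 1. None of the 4 windows holds the repeat GGAAGGAA or TTCCTTCC, whose matches overlap those of GGAA and which was found in 3.06% of windows of 250 bases. A match is a run of letters and not a measured binding site. Counts per gene do not tell which start was used.

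NOS1, the neuronal nitric oxide synthase (ENSG00000089250, chromosome 12, 117208142 to 117452170 on GRCh38, minus strand), was abundant in ETS1-Low. Its expected counts were 1, 1 and 0 in RFP replicates 1 to 3. They were 2092, 2545 and 2349.01 in ETS1-Low. They were 29, 50 and 45 in ETS1-High. The groups did not overlap, and the ETS1-High libraries, with more ETS1, lay between RFP and ETS1-Low. ETS1-Low averaged 56.4 ± 1.02 CPM (SD, n = 3). ETS1-High averaged 0.952 ± 0.194 CPM. Summed over the libraries and scaled to library size, ETS1-Low held 58.7 times as much as ETS1-High, with an exact 95% counting interval of 49.2 to 70.7. Against RFP the ratio was 4059 for ETS1-Low, and its interval of 1123 to 33520 is wide because the RFP libraries held 2 counts in all. ETS1-High against RFP gave 69.1 (18.7 to 577). "On only in ETS1-Low" is therefore a matter of degree, since ETS1-High held 124 counts.

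**Figure D1:**
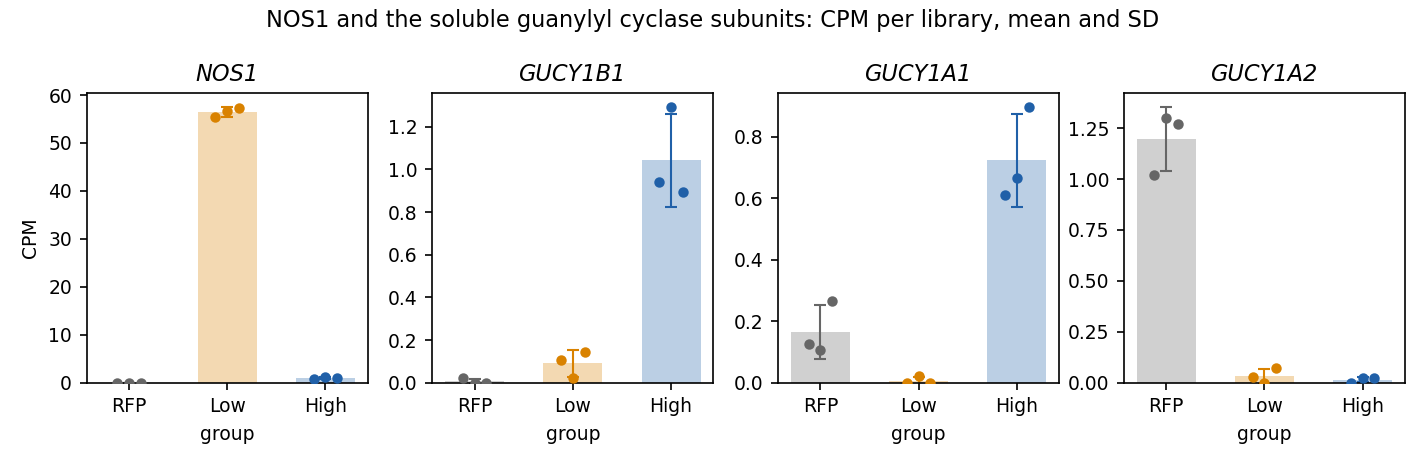
Levels of NOS1 and of the subunits of soluble guanylyl cyclase, in CPM on a separate linear axis for each gene, by group. Points are the 3 libraries, bars are means and error bars are the SD. NOS1 was at 56.4 CPM in ETS1-Low, while GUCY1B1 and GUCY1A1 were highest in ETS1-High and GUCY1A2 in RFP.

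FPKM, which divides by transcript length, allows the synthases to be compared with each other. In ETS1-Low, NOS1 stood at 4.42, 4.55 and 4.63 FPKM in replicates 1 to 3. By its mean of 4.53 FPKM it ranked 9219 of 19792 protein-coding genes in those cells. Of these, 15948 were above 0 FPKM, so NOS1 lay below the middle of those detected. NOS3 was the leading synthase in RFP, with 97.9% to 99.4% of the summed FPKM of the 3 synthases. In ETS1-Low the share of NOS1 was 90.6% to 97.6%. In ETS1-High the share of NOS1 ran from 19.0% to 69.2% and that of NOS3 from 30.8% to 78.6%, so by FPKM neither led in all 3 libraries. The FPKM of NOS3 there rested on 5, 7 and 10 counts. By counts NOS1, with 29, 50 and 45, was above NOS3 in each of these libraries. The summed FPKM of the synthases was 1.40 to 1.86 in RFP, 4.66 to 4.88 in ETS1-Low and 0.13 to 0.42 in ETS1-High.

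NOS3, the endothelial synthase (ENSG00000164867, chromosome 7, 150991017 to 151014588, plus strand), was lower in both ETS1 groups. Its expected counts were 51, 78 and 78 in RFP, 6, 10 and 7 in ETS1-Low, and 5, 7 and 10 in ETS1-High. Every ETS1 library lay below every RFP library, and the ETS1 groups overlapped. Only in RFP did all 3 libraries of NOS3 lie above the filter, at 0.221 CPM, so its fitted changes against RFP are a description. They were 7.66-fold lower in ETS1-Low (log2 value -2.94, SE 0.31) and 8.34-fold lower in ETS1-High (-3.06, SE 0.31). Between the ETS1 groups edgeR gave -0.12 (SE 0.44, adjusted p = 0.836), which does not show that their levels were equal. The FPKM of NOS3 ran from 0.04 to 0.33 in ETS1-High on 5 to 10 counts. NOS3 shares exon bases with ATG9B on the opposite strand, and whether the counting used strand is not given in the sources used here.

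NOS2, the inducible synthase (ENSG00000007171, chromosome 17, 27756766 to 27800529, minus strand), was close to absent in every group. It had 3, 3 and 2 counts in RFP, 0 in each ETS1-Low library, and 0, 0 and 1 in ETS1-High. It did not pass the filter, and no fold is given because all groups lay at or under the floor of 3 counts per library.

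An adaptor of NOS1 and an enzyme of arginine supply were lower in both ETS1 groups. NOS1AP, an adaptor protein that binds NOS1 (ENSG00000198929, chromosome 1, 162069691 to 162370475, plus strand), had 994.05, 964.86 and 938.04 counts in RFP. It had 418.13, 484.29 and 460.61 in ETS1-Low and 393.46, 478.02 and 420.03 in ETS1-High. NOS1AP thus fell in the group in which NOS1 was abundant. The log2 fold change was -0.87 (SE 0.06, adjusted p = 1.01e-17, edgeR) in ETS1-Low and -1.01 (SE 0.06, adjusted p = 4.78e-20) in ETS1-High. Between the ETS1 groups it was -0.14 (SE 0.07, adjusted p = 0.0738) and did not pass, although without ETS1-High replicate 2 it did, at -0.18 (adjusted p = 0.0326). NOS1AP shares exon bases with ENSG00000254706 on the same strand, and its counts were fractions in every library, so the division between both genes is an estimate.

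ASS1, argininosuccinate synthase, makes the precursor from which arginine is regenerated (ENSG00000130707, chromosome 9, 130444961 to 130501274, plus strand). It was the most abundant member in every group by FPKM. Its counts were 3854, 3868 and 4229.04 in RFP, 1626, 2034 and 1734 in ETS1-Low, and 945, 1219 and 1086 in ETS1-High. The 3 groups formed separate steps. The mean level was 83.1 ± 3.31 CPM in RFP, 43.5 ± 1.51 in ETS1-Low and 25.1 ± 1.72 in ETS1-High (SD, n = 3). edgeR gave log2 fold changes of -0.93 (SE 0.04, adjusted p = 1.14e-25) and -1.72 (SE 0.04, adjusted p = 2.54e-35) against RFP. The step from ETS1-Low to ETS1-High was -0.79 (SE 0.04, adjusted p = 2.43e-20). Among 110 other genes within 5 Mb of ASS1, 90% were lower in ETS1-Low than in RFP, and their median change was -0.56 on the log2 scale. In ETS1-High that median was -0.11. Less the median of its neighbours, the change of ASS1 was -0.38 in ETS1-Low and -1.62 in ETS1-High. The part of the surrounding region in the ETS1-Low value was not tested.

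**Figure D2:**
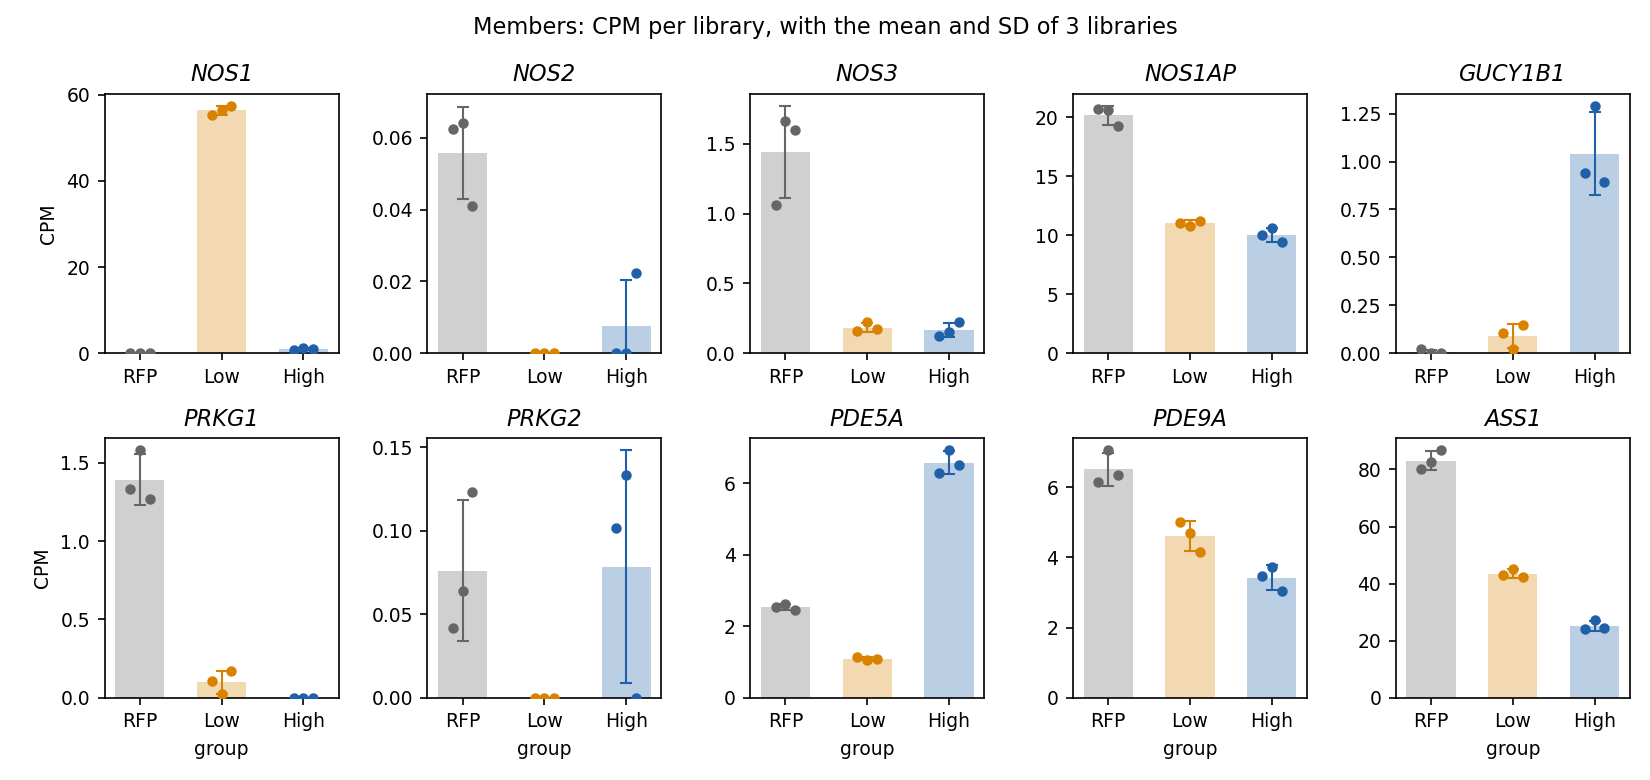
Levels of the members in each of the 9 libraries, in CPM, by group. ASS1 descended from 83.1 CPM in RFP to 25.1 in ETS1-High, PDE5A was lowest in ETS1-Low and highest in ETS1-High, and PRKG1 had no count in ETS1-High.

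Other genes of arginine supply, cofactor supply and inhibitor removal moved in both directions. Of all genes tested, 37.9% were called higher and 36.2% lower in ETS1-Low against RFP. In ETS1-High those shares were 37.0% and 37.2%. Tetrahydrobiopterin is a cofactor that all nitric oxide synthases need. Of its 6 listed genes, 5 rose and 1 fell in ETS1-Low, and 4 rose and 1 fell in ETS1-High. SPR, sepiapterin reductase, which makes the last step of its synthesis, had 295 to 339 counts in RFP, 1047 to 1149 in ETS1-Low and 928 to 1108 in ETS1-High. SPR rose by 1.99 (SE 0.06, adjusted p = 4.4e-33, edgeR) and 1.88 (SE 0.06, adjusted p = 5.5e-32) on the log2 scale. GCHFR, which inhibits the first enzyme of the pathway, rose by 1.64 and 1.19 (SE 0.08 each). GCH1, that first enzyme, rose by 0.32 (SE 0.10, adjusted p = 0.00227, edgeR) in ETS1-Low with overlapping libraries, and gave 0.11 (adjusted p = 0.285) in ETS1-High.

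SLC7A2, a transporter of cationic amino acids such as arginine, was highest in ETS1-Low, as NOS1 was. It had 827 to 897 counts in RFP, 1966 to 2293 in ETS1-Low and 551 to 596 in ETS1-High. It rose by 1.53 (SE 0.05, adjusted p = 3.47e-33, edgeR) in ETS1-Low. It fell by 0.43 (SE 0.05, adjusted p = 4.4e-10) in ETS1-High. DDAH1 and DDAH2 degrade ADMA, an endogenous inhibitor of the synthases. DDAH1 rose from 33.3 ± 0.964 CPM in RFP to 99.2 ± 4.37 in ETS1-Low and 139.9 ± 2.25 in ETS1-High (SD, n = 3). DDAH2 moved the other way, with log2 fold changes of -0.99 (SE 0.06, adjusted p = 1.17e-17, edgeR) and -0.40 (SE 0.05, adjusted p = 3.49e-08).

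Of 10 tested genes whose products bind or escort the synthases, 5 rose and 3 fell in ETS1-Low, and 7 rose and 3 fell in ETS1-High. Among all genes tested, 37.9% rose and 36.2% fell in ETS1-Low, and 37.0% and 37.2% in ETS1-High. CALM3, which encodes calmodulin, the calcium sensor that activates NOS1 and NOS3, was at 267.0 ± 3.35 CPM in RFP, 557.1 ± 4.03 in ETS1-Low and 539.1 ± 20.2 in ETS1-High. It was the only one of the 10 to change 2-fold, with log2 values of 1.06 and 1.01 (SE 0.03 each). CYGB, cytoglobin, which can remove nitric oxide, rose on few counts, from 4 to 6 per library in RFP to 12.12 to 15.77 in ETS1-Low and 10.05 to 16 in ETS1-High. CYGB passed the filter through the ETS1 groups alone, in which it was higher. Its fitted log2 values of 1.78 (SE 0.46) and 1.61 (SE 0.47) are therefore a description.

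Soluble guanylyl cyclase, the receptor of nitric oxide, was carried by few reads in every group. GUCY1B1, the beta subunit of the active dimer (ENSG00000061918, chromosome 4, 155758992 to 155807811, plus strand), had 1, 0 and 0 counts in RFP, 4, 1 and 6 in ETS1-Low, and 37, 58 and 40 in ETS1-High. The ETS1-High libraries stood apart from all others, and a value of 1 count occurred in both RFP and ETS1-Low. The level in ETS1-High was 1.04 ± 0.22 CPM (SD, n = 3). GUCY1B1 passed the filter through ETS1-High alone, the group in which it was highest, so its differences are a description. Against ETS1-Low, ETS1-High gave a fitted log2 value of 3.51 (SE 0.42). The ratio of ETS1-High to RFP was 150.5, with an exact 95% interval of 26.6 to 5987 because RFP held 1 count. ETS1-Low against RFP gave a ratio of 12.8 (1.86 to 550.2), on 11 counts against 1. On log2(FPKM + 1) that difference was 0.04 and did not pass limma's test (adjusted p = 0.617). The pseudocount of 1 far exceeds the means of 0.0300 and 0.00333 FPKM, so that test could hardly have shown a difference. Without RFP replicate 1, which held the single count, the fitted log2 value moved from 3.23 to 5.00 in ETS1-Low and from 6.74 to 8.51 in ETS1-High.

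The alpha subunits were highest in different groups. GUCY1A1, which starts 92.3 kb from GUCY1B1 on the same chromosome, had 6, 5 and 13 counts in RFP, 0, 1 and 0 in ETS1-Low, and 24, 30 and 40 in ETS1-High. It was lowest in ETS1-Low, in which NOS1 was abundant, and highest in ETS1-High. ETS1-High held 90.2 times as much as ETS1-Low, with an exact interval of 15.8 to 3599. Against RFP, the fitted log2 difference of GUCY1A1 in ETS1-High was 2.10 (SE 0.38). GUCY1A1 shares exon bases with ENSG00000260244, a long noncoding RNA on the same strand. GUCY1A2, the alternative alpha subunit, had 49, 61 and 62 counts in RFP, 1, 0 and 3 in ETS1-Low, and 0, 1 and 1 in ETS1-High. It was present in RFP and close to absent in both ETS1 groups. RFP held 77.2 times as much as ETS1-High (21.0 to 642), and ETS1-Low against RFP gave a fitted log2 value of -5.09 (SE 0.48). GUCY1A1 had all its libraries above the filter in ETS1-High alone and GUCY1A2 in RFP alone, so these values too are a description.

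In FPKM, the mean of GUCY1B1 was 0.00333 in RFP, 0.0300 in ETS1-Low and 0.357 in ETS1-High. GUCY1A1 was at 0.0867, 0.00667 and 0.273 FPKM in the same order. GUCY1A2 was at 0.0833, 0.00333 and 0.00333. A beta and an alpha subunit were therefore both above 0.1 FPKM only in ETS1-High, among these 3 groups. At the library totals given above, whether ETS1-Low cells hold a few transcripts of GUCY1A1 could not be resolved.

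Cyclic GMP can also come from receptors for natriuretic peptides. NPR1, such a receptor with a cyclase domain, had 15 to 18 counts in RFP, 35 to 54 in ETS1-Low and 20 to 27 in ETS1-High. NPR1 rose by 1.57 (SE 0.28, adjusted p = 1.96e-06, edgeR) in ETS1-Low and by 0.72 (SE 0.30, adjusted p = 0.0274) in ETS1-High. NPR2, another such receptor with a cyclase domain, was more abundant. Its mean FPKM was 3.13 in RFP, 4.38 in ETS1-Low and 5.09 in ETS1-High, against 0.123, 0.313 and 0.180 for NPR1. NPR2 rose by 0.49 (SE 0.11, adjusted p = 5.97e-05, edgeR) in ETS1-Low and by 0.75 (SE 0.10, adjusted p = 1.01e-08) in ETS1-High. NPR3, which clears the peptides and has no cyclase domain, had 40 to 48 counts in RFP, 0 to 5 in ETS1-Low and 5 to 9 in ETS1-High. Its fitted log2 differences were -3.95 (SE 0.45) and -2.41 (SE 0.36), and it passed the filter through RFP alone.

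The kinases were low throughout. PRKG1, cyclic GMP-dependent protein kinase 1 (ENSG00000185532, chromosome 10, 50990888 to 52298423, plus strand), had 64, 74 and 62 counts in RFP, 4, 1 and 7 in ETS1-Low, and 0 in each ETS1-High library. The counts of the groups did not overlap, but those of the ETS1 groups came as close as 1 against 0. PRKG1 passed the filter through RFP alone, so its differences from RFP are a description. In ETS1-Low it was 13.9-fold lower, a fitted log2 value of -3.80 (SE 0.38) that moved to -4.46 without ETS1-Low replicate 3. In ETS1-High it was at least 19.9-fold lower than in RFP, taking a floor of 3 counts per library. Against ETS1-Low the same floor gave 1.42-fold, which takes the 12 counts of ETS1-Low as exact. ETS1-Low replicate 2, with 1 count, lay below that floor. A count of 0 in a library allows up to 3 counts. PRKG1 shares exon bases with PRKG1-AS1 on the opposite strand. PRKG2, the second kinase (ENSG00000138669, chromosome 4, 81087370 to 81215222, minus strand), had 2, 3 and 6 counts in RFP, 0 in each ETS1-Low library, and 4, 6 and 0 in ETS1-High. It did not pass the filter.

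Substrates of PRKG1 that act on calcium release moved apart. ITPR1, the inositol trisphosphate receptor that releases calcium from stores, had 293 to 354 counts in RFP, 4005 to 4773.27 in ETS1-Low and 10985 to 11821.87 in ETS1-High. It rose by 3.95 (SE 0.05, adjusted p = 1.33e-49, edgeR) and 5.27 (SE 0.05, adjusted p = 6.99e-56). IRAG1, listed as MRVI1, which links PRKG1 to that receptor, had 98 to 111 counts in RFP, 14 to 20 in ETS1-Low and 11 to 14 in ETS1-High. It fell by 2.43 (SE 0.23) and 2.85 (SE 0.24). VASP, a cytoskeletal substrate, rose by 0.36 and 0.43 (SE 0.04 each). Of 5 tested substrates, 3 rose and 1 fell in ETS1-Low, and 4 rose and 1 fell in ETS1-High. Among all genes tested, 37.9% rose and 36.2% fell in ETS1-Low, and 37.0% and 37.2% in ETS1-High.

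PDE5A moved in opposite directions in the ETS1 groups. It encodes the cyclic GMP-specific phosphodiesterase that sildenafil inhibits (ENSG00000138735, chromosome 4, 119494397 to 119628804, minus strand). Its counts were 122, 123 and 120 in RFP, 43, 47 and 45 in ETS1-Low, and 248, 311 and 291 in ETS1-High. It was lower than RFP in ETS1-Low and higher than RFP in ETS1-High, with no overlap. Mean levels were 2.54 ± 0.083, 1.09 ± 0.046 and 6.58 ± 0.32 CPM (SD, n = 3). The log2 fold change was -1.22 (SE 0.14, adjusted p = 1.38e-10, edgeR) in ETS1-Low and 1.37 (SE 0.11, adjusted p = 4.01e-16) in ETS1-High. From ETS1-Low to ETS1-High it rose by 2.59 (SE 0.13, adjusted p = 1.8e-23), or 6.02-fold. The 20 genes within 5 Mb had median changes of 0.24 and 0.34 against RFP. PDE5A shares exon bases with ENSG00000291203 on the opposite strand.

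PDE9A, another phosphodiesterase specific to cyclic GMP (ENSG00000160191, chromosome 21, 42653621 to 42775509, plus strand), had 295, 330 and 309 counts in RFP, 189, 211 and 170 in ETS1-Low, and 137, 168 and 136 in ETS1-High. The steps were small and the groups did not overlap. edgeR gave -0.50 (SE 0.10, adjusted p = 1.52e-05) in ETS1-Low and -0.93 (SE 0.10, adjusted p = 2.1e-11) in ETS1-High. The step between them was -0.43 (SE 0.11, adjusted p = 0.000609). PDE5A and PDE9A, the pair of cyclic GMP-specific enzymes in the set, thus had opposite signs in ETS1-High against RFP and the same sign in ETS1-Low.

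**Figure D3:**
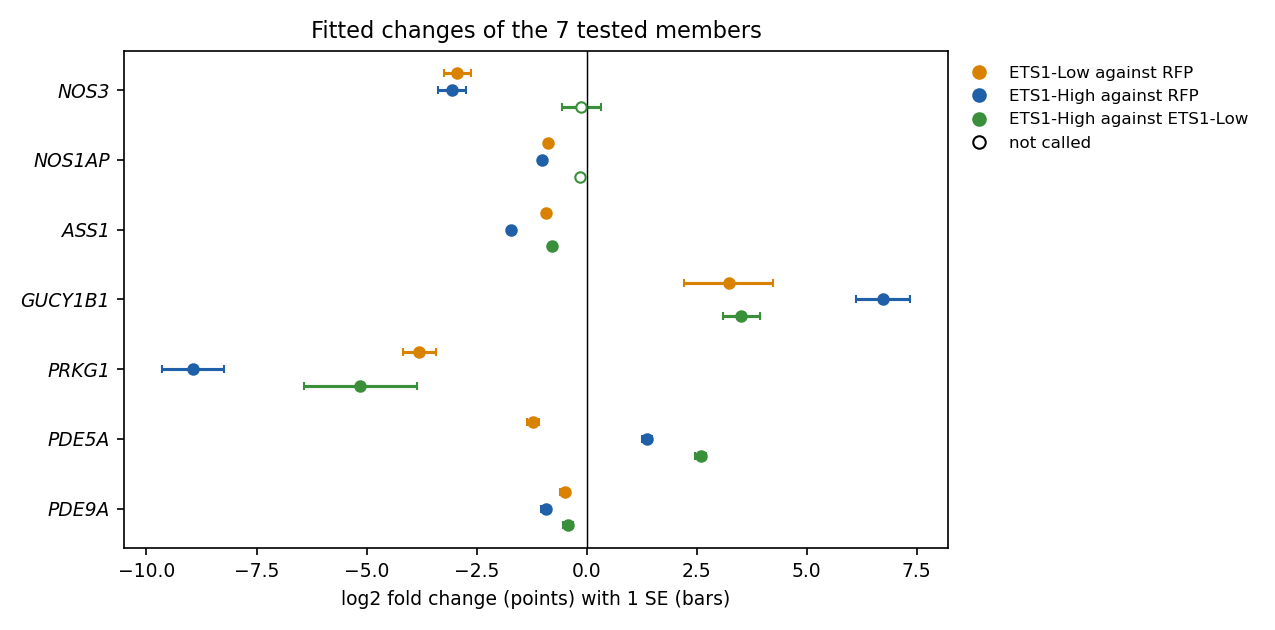
Log2 fold changes with their SE for the tested members, in each of the 3 comparisons, from edgeR. Filled points passed an adjusted p under 0.05 and open points did not. PDE5A was at -1.22 in ETS1-Low and 1.37 in ETS1-High, and the values of PRKG1 in ETS1-High depend on how a count of 0 is treated. NOS3, GUCY1B1 and PRKG1 had all libraries above the filter in a single group.

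Of 7 members tested with NOS1 left out, all 7 were called against RFP in each ETS1 group, 1 higher and 6 lower in ETS1-Low and 2 higher and 5 lower in ETS1-High. Between the ETS1 groups, 5 of 7 were called, 2 higher and 3 lower. These members were chosen with their results known, and 3 of them, NOS3, GUCY1B1 and PRKG1, had all libraries above the filter in a single group, so nothing is read from these counts against the 74.1%, 74.2% and 59.2% of all genes called. Libraries did not overlap in CPM for 76.0%, 75.5% and 63.2% of all genes in the same comparisons, so separate groups are common too.

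Other phosphodiesterases changed in both directions. Of 8 tested, 3 rose and 4 fell in ETS1-Low, and 4 rose and 4 fell in ETS1-High. Among all genes tested, 37.9% rose and 36.2% fell in ETS1-Low, and 37.0% and 37.2% in ETS1-High. PDE1A, which calcium and calmodulin activate, had 12, 9 and 13 counts in RFP, 635, 722 and 612 in ETS1-Low, and 205, 248 and 292 in ETS1-High. It was near absent in RFP and highest in ETS1-Low. Its log2 fold changes were 6.06 (SE 0.14, adjusted p = 3.16e-38, edgeR) and 4.59 (SE 0.16, adjusted p = 3.53e-30), and from ETS1-Low to ETS1-High it fell by 1.47 (SE 0.08). PDE1C, its calmodulin-activated relative, fell from 5.77 ± 0.113 CPM in RFP to 0.429 ± 0.073 in ETS1-Low and 0.847 ± 0.248 in ETS1-High (SD, n = 3). PDE3A and PDE3B, which cyclic GMP inhibits, were also lower. PDE3A had 55 to 58 counts in RFP, 0 or 1 in each ETS1-Low library and 1 to 6 in ETS1-High, so RFP held 73.1 times as much as ETS1-Low (exact interval 19.9 to 609), and it passed the filter through RFP alone. PDE3B had 179, 206 and 200 counts in RFP, 5, 21 and 20 in ETS1-Low, and 9, 11 and 0 in ETS1-High. Its fitted log2 differences from RFP were -3.45 (SE 0.41) and -4.69 (SE 0.47). Only in RFP did all libraries of PDE3B lie above the filter, so these values are a description. PDE6A and PDE6B, the catalytic subunits of the rod photoreceptor enzyme, moved apart. PDE6A fell by 1.83 in both ETS1 groups (SE 0.07 each), and PDE6B rose by 1.99 and 1.45 (SE 0.10 each).

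**Figure D4:**
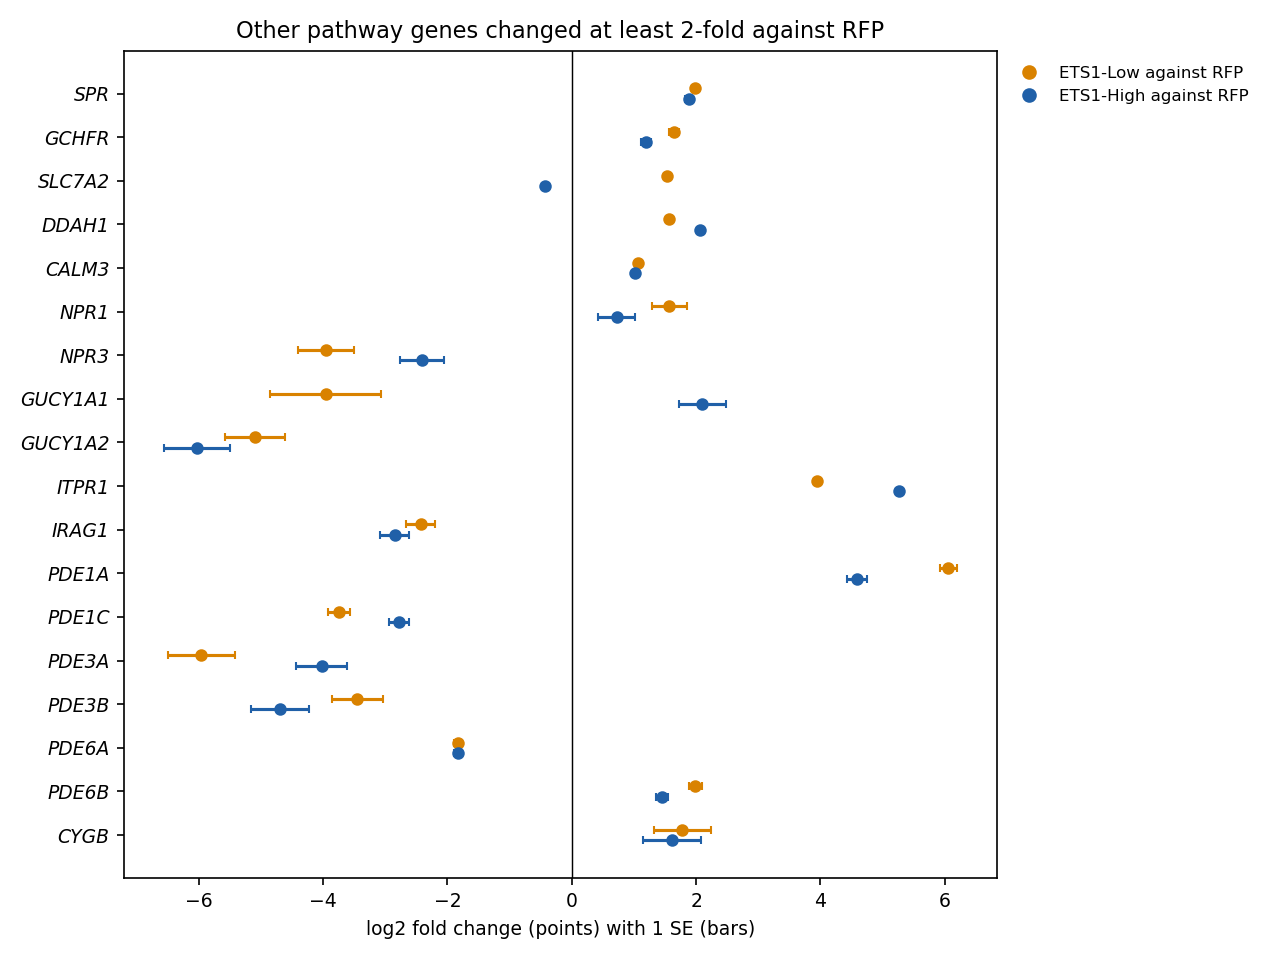
Log2 fold changes against RFP, with their SE, of the 18 other pathway genes that were called with at least a 2-fold change in an ETS1 group. PDE1A reached 6.06 in ETS1-Low and ITPR1 5.27 in ETS1-High, while GUCY1A2 and PDE3A lay below -4 in both groups.

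The wider pathway list held 71 genes besides the members, of which 46 passed the filter. Of these, 25 rose and 16 fell in ETS1-Low, 28 rose and 17 fell in ETS1-High, and 18 rose and 11 fell from ETS1-Low to ETS1-High. Among all genes tested, 37.9% rose and 36.2% fell in ETS1-Low, and 37.0% and 37.2% in ETS1-High. From ETS1-Low to ETS1-High, 29.9% of all genes rose and 29.3% fell. Changes of at least 2-fold that were called made up 39.1% of the 46 in ETS1-Low and 34.8% in ETS1-High, against 20.6% and 21.0% of all genes tested. The median log2 fold change was 0.31 and 0.32 against RFP, where that over all genes was 0.01 and -0.01. From ETS1-Low to ETS1-High the 2-fold share was 10.9%, against 9.74% of all genes. These shares are a description and the list was not tested. Of the 46 genes, 5 had all 3 libraries above the filter in a single group: GUCY1A1, GUCY1A2, NPR3, PDE3A and PDE3B. CYGB lay above it in every ETS1 library and in no RFP library.

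The genes most like NOS1 over the 9 libraries were sought by Pearson correlation of log2 CPM among 12400 genes that averaged 100 or more counts. They were FAM184A, GSTM4, TP73 and SVIL, each at r = 0.999, and RGS10 at r = 0.998. The libraries share 3 groups, so a correlation mainly repeats the order of the group means, and 81 genes exceeded 0.99. These genes are like NOS1 in shape only. In all 5 the ratio of ETS1-Low to ETS1-High was 1.63 to 2.37, far below that of NOS1. A rule on levels gave a closer match. It asked for at most 3 counts in each RFP library, at least 10 CPM in ETS1-Low and 10-fold less in ETS1-High, and 3 genes met it: NOS1, RNF128 and NRK. RNF128, an E3 ubiquitin ligase, had 0, 0 and 3 counts in RFP, 445, 510 and 440 in ETS1-Low, and 47, 45 and 43 in ETS1-High. NRK, a protein kinase, had 1, 2 and 3, then 400, 498 and 462, then 5, 8 and 10. RNF128 and NRK start 0.87 Mb apart on chromosome X, and NOS1 had the highest level of the 3.

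The tested genes with a gene symbol around NOS1 differed between groups by far less than NOS1 did. Distances are from the outermost NOS1 start, at 117452170, and not from the RefSeq start whose window is shown above. Tested genes without a gene symbol were left out. Of 13 tested genes with a symbol that start within 1 Mb of the NOS1 start, FBXO21 was the closest, at 261.7 kb. Its log2 fold changes were -0.34 in ETS1-Low and -0.26 in ETS1-High. Over the 13 the values ran from -1.48 for VSIG10 to 1.00 for MAP1LC3B2 in ETS1-Low, and from -1.32 for WSB2 to 0.83 for MAP1LC3B2 in ETS1-High. MAP1LC3B2 was at 0.160 CPM in RFP and 0.322 in ETS1-Low. For 64 genes within 5 Mb the median change was 0.08 for ETS1-Low and 0.01 for ETS1-High.

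**Figure D5:**
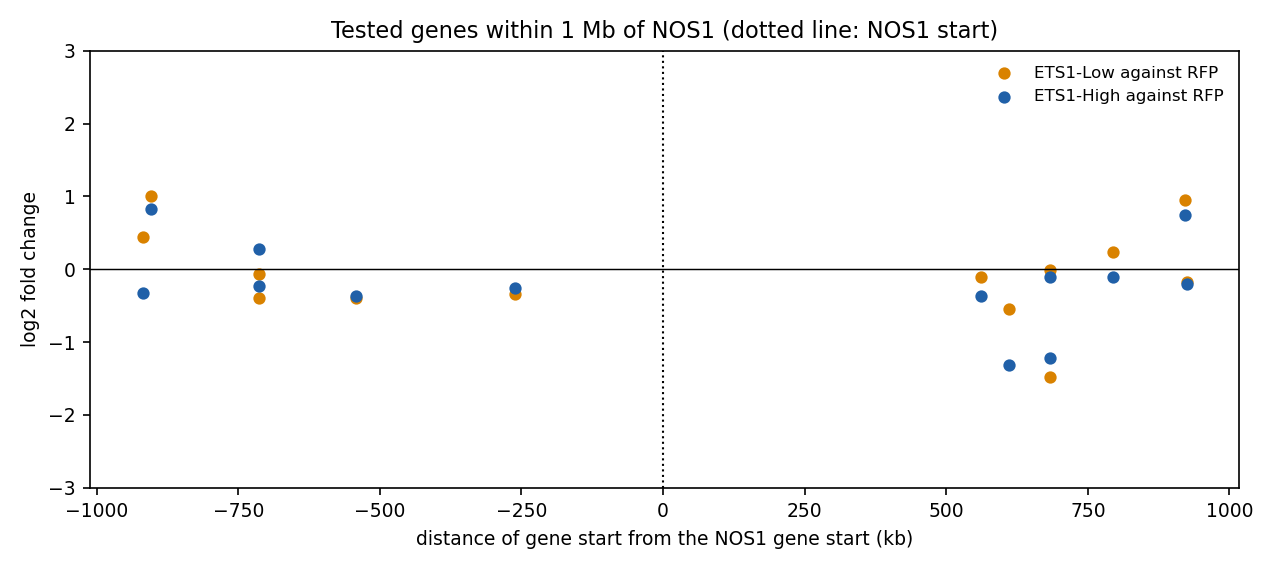
Log2 fold changes against RFP of the 13 tested genes with a gene symbol around NOS1, by distance in kb from the outermost NOS1 start. The values lie between -1.48 and 1.00, and FBXO21 at 261.7 kb is the nearest.

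Markers of cell types that are known for these genes were measured beside them. Of 7 neuronal markers 5 were tested, and their summed level was 126.2 to 129.1 CPM in RFP, 94.7 to 95.2 in ETS1-Low and 102.1 to 104 in ETS1-High, with STMN2 at 0 in both ETS1 groups and RBFOX3 at 0 in ETS1-High. SYT1 made up most of that sum, at means of 111.0, 86.6 and 92.8 CPM. MAP2 was at 5.11, 0.0968 and 0.116 CPM and SYP at 2.66, 1.90 and 1.49, so the markers did not share 1 order of the groups. Of 7 endothelial markers 3 were tested, with summed levels of 2.42 to 3.08, 3.96 to 4.58 and 5.87 to 6.76 CPM. PECAM1 made up most of the sum, at means of 1.70, 3.69 and 5.17 CPM, and TEK had the opposite order, at 0.766, 0.0378 and 0.00846 CPM. VWF and ERG were at 0 in both ETS1 groups and TIE1 in ETS1-Low. Of 6 smooth muscle markers 5 were tested, and their summed level was 53.9 to 56.9 CPM in RFP, 16.4 to 17.3 in ETS1-Low and 41.3 to 48.7 in ETS1-High. ACTA2 made up most of the sum, at means of 43.7, 12.7 and 31.0 CPM. TAGLN and CNN1 were also lowest in ETS1-Low. LMOD1, at 1.16, 0.899 and 0.519 CPM, was lowest in ETS1-High, as were DES and MYH11. The part of that list in these results was not tested. Of 6 myeloid markers 3 were tested, with 4.84 to 5.91, 2.36 to 2.96 and 1.32 to 1.85 CPM, and TYROBP was at 0 in both ETS1 groups. CD68, at 1.87, 2.37 and 0.779 CPM, was highest in ETS1-Low, while CSF1R, at 2.005, 0.104 and 0.408 CPM, was lowest there.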

How the data were processed

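RSEM expected counts and RSEM FPKM values for each gene were deposited by the authors in separate tables, per the file headers. The submitters' processing notes name GRCh38, cutadapt 4.4, STAR 2.7.3, Subread 2.0.3 and limma 3.38.3; the annotation release is not given in the sources used here. Expected counts divide reads shared between genes, and 9.00% to 10.3% of values per library were not whole. Both tables' 9 columns were matched to libraries by name.

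Expected counts were rounded and tested with edgeR 4.0.16 in R 4.3.3 (TMM, filterByExpr by group, glmQLFit with robust estimation, all 9 libraries fitted together, with no covariate beside the group). P-values were adjusted by Benjamini-Hochberg over 17235 genes and a gene was called under 0.05. CPM use TMM-scaled totals. Replicates differed by more than sampling noise, with chi-square of 2.66 to 5.19 per gene.

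Where a group held 1 to 3 counts in all, the ratio has an exact Clopper-Pearson 95% interval; where it held 0, a floor of 3 counts per library gives a bound. The design had set a bound from the floor in both cases. Both cover counting error only, since reads carry no molecular identifiers. Positions are from GENCODE v44 and promoters from RefSeq.

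The members and lists were chosen with earlier results of these data known. Named were all members, the cyclase subunits, pathway genes called with a 2-fold change against RFP, and ETS1. Also named were the genes most like NOS1 by correlation or by a rule on levels. So were tested genes with a gene symbol within 1 Mb of NOS1. A few others of the lists are named for contrast after their values were seen. Alternatives were DESeq2 1.42.0 (size factors and its Wald test), other filters, a replicate block, fits of the compared groups, limma 3.58.1 on log2 FPKM with a pseudocount of 1 or 0.1, and leaving out each library.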

Additional observations from a re-analysis of the deposited data

Results flagged for a closer look

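ETS1-High differed from ETS1-Low in 5 of the 7 tested members by edgeR's quasi-likelihood test, where 59.2% of all genes tested were called in that comparison. This difference equals that of their changes against the shared RFP libraries. ETS1 level and clone cannot be told apart, since cells were sorted as single cells and the number of clones is not given. On the log2 scale the difference was 2.59 for PDE5A (adjusted p = 1.8e-23), -0.43 for PDE9A (adjusted p = 0.000609) and -0.79 for ASS1 (adjusted p = 2.43e-20). GUCY1B1 and PRKG1 passed the filter through a single group, so their fitted values of 3.51 and -5.14 are a description. That of PRKG1 rests on 12 counts in ETS1-Low against 0 in ETS1-High and depends on how a count of 0 is treated. By limma on log2(FPKM + 1) with no filter it was -0.03 (adjusted p = 0.629). With means of 0.0233 and 0 FPKM, a pseudocount of 1 keeps that value small in any case. The libraries of ETS1-Low and ETS1-High did not overlap for these 5 genes, as for 63.2% of all genes.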

How the results depend on the processing

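Of 297 recomputed changes of single members, 290 kept their direction and side of the threshold. NOS3 in ETS1-High against ETS1-Low, not called under any setting run, ranged from -0.38 to 0.05 on leaving out a library; it was 0.05 without ETS1-Low replicate 2 and 0.03 without ETS1-High replicate 1. On FPKM, GUCY1B1 in ETS1-Low against RFP gave 0.04 (adjusted p = 0.617), 0.32 (0.38) and 0.04 (0.613) for the 3 limma settings. PRKG1 in ETS1-High against ETS1-Low gave -0.03 (0.629) with no filter. The pseudocounts exceed the mean FPKM of both genes in these groups, so these settings could hardly show a difference. NOS1AP in ETS1-High against ETS1-Low passed without ETS1-High replicate 2. NOS3 and PRKG1 had no value in a fit of the ETS1 groups alone, since they then failed the filter. GUCY1B1 likewise had none in a fit of ETS1-Low and RFP alone. With at least 10 counts in every library, only 4 members had a value and 4, 4 and 3 were called in ETS1-Low against RFP, ETS1-High against RFP and ETS1-High against ETS1-Low, since that filter removes genes that are low in a group. With no filter, 9 members were called in ETS1-Low against RFP, with NOS2 and PRKG2. The other counts stayed within 1.5 times. Leaving out each library, 12401 to 12488, 12392 to 12591 and 9504 to 9720 genes were called, the level of NOS1 in ETS1-Low was 55.96 to 56.97 CPM, and its ratio to ETS1-High 53.2 to 64.7. Replicate numbers gave no sign of pairing, with same-numbered libraries correlated at -0.029 to 0.028. That does not show that same-numbered libraries were handled apart. With the replicate block 12729, 12701 and 10122 genes and 7, 7 and 5 members were called. Genes under about 10 counts per library, among them NOS2, PRKG2, GUCY1A1 and GUCY1B1 in RFP and ETS1-Low, are limited by depth.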
